A study of Homo sapiens with 12 samples.

Results

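Selinexor blocks the nuclear export receptor XPO1, and an siRNA against XPO1 lowers its messenger RNA. The quantity described here is the difference between what these treatments did to each gene in IMR5 neuroblastoma cells: the selinexor effect (log2 of selinexor against DMSO) minus the knockdown effect (log2 of XPO1 siRNA against control siRNA). A positive difference means that a gene stood higher, relative to its own control, after selinexor than after knockdown. The members are the 18987 genes whose symbol stands in both deposited tables, out of 20652 in either. Of these, 17864 had a mean of 10 or more over the 12 libraries and were tested.

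IMR5 is a human neuroblastoma line with amplified MYCN, and all 12 libraries were total RNA from this 1 line. There were 4 groups of 3 libraries. DMSO cells were the controls of cells grown for 24 h in 100 nM selinexor. Cells nucleofected with a negative control siRNA were the controls of cells nucleofected with a single siRNA against XPO1 (number 10), and both were collected at 72 h. For DMSO no duration is stated. The selinexor and knockdown arms therefore differ in agent, duration, delivery and control, and these cannot be told apart in the difference. Nothing in the labels says that replicates were separate cultures, so p-values measure the spread between these libraries, which may be technical.

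XPO1, also called CRM1, carries proteins with a leucine-rich export signal, and some RNAs through adaptors, out of the nucleus together with Ran bound to GTP. Selinexor binds covalently to a cysteine in the groove of XPO1 that holds the export signal, so it blocks cargo binding without removing the messenger RNA. An siRNA removes the messenger RNA, and the protein then declines as existing molecules are lost. Known cargoes include p53, FOXO factors, inhibitors of NF-kB and ribosomal subunit adaptors.

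Estimated depth was 26.8 to 55.8 M reads per library. RN7SL1 and RN7SL2, the abundant signal recognition particle RNAs, took 12.6% to 16.0% of the values in selinexor libraries, 9.40% to 9.72% in DMSO libraries and 10.8% to 13.1% in siRNA libraries. Selinexor replicate 1 stood apart: it differed from the other selinexor libraries by 60.04 and 43.6 chi-square units per gene, against 2.94 to 9.52 for every other replicate pair. Neuroblast markers were high in all 12 libraries, with DBH, GATA3 and HAND2 summing to 15103 to 27164 (TH was not analysed here). The glial marker SOX10 was at 5.31 to 30.6 in all libraries. The leukocyte and endothelial markers CD14 and CDH5 summed to 30.9 to 40.01 in the controls and were higher in the treated groups, at 53.5 to 82.4 with selinexor and 81.0 to 96.5 with knockdown. The mesenchymal sum of COL1A1, COL3A1, FN1 and LUM was 4611 to 4765 with DMSO, 2947 to 4366 with selinexor, 3828 to 4130 with control siRNA and 2729 to 2876 with XPO1 siRNA. The part of these markers in the results was not tested.

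XPO1 itself separated the arms. The gene lies at chr2:61704984-61765762 on hg19, as the deposited table gives it. Its normalized read counts were 17886, 18899 and 18356 in the DMSO libraries and 15544, 22513 and 21165 in the selinexor libraries, so the groups overlapped. They were 18568, 18950.1 and 18908 with control siRNA and 4259.9, 4377 and 4397 with XPO1 siRNA, with no overlap. The knockdown effect on XPO1 was -2.11 on the log2 scale and the selinexor effect 0.09, which gave a difference of 2.20 ± 0.15 (SE; limma, Benjamini-Hochberg adjusted p = 3.32e-07). Without selinexor replicate 1, the lowest of the selinexor libraries for XPO1, the difference was 2.36.

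NGFR, the low-affinity neurotrophin receptor p75, at chr17:47572655-47592380 on hg19, rose with selinexor alone. Its counts were 85.1, 109 and 99.3 with DMSO and 642, 546 and 532 with selinexor. In the siRNA libraries they were 1122, 1094 and 1074 with the control and 999, 1003 and 986 with XPO1 siRNA. The selinexor libraries stood above all DMSO libraries, while the XPO1 siRNA libraries lay slightly below their controls. The difference was 2.68 ± 0.13 (SE; limma adjusted p = 4.45e-08), from a selinexor effect of 2.54 and a knockdown effect of -0.14 that did not pass (adjusted p = 0.28). The starting levels were unequal: the control siRNA cells had a mean of 1097 and the DMSO cells 97.6, in tables that were normalized separately.

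CENPE, the kinetochore motor that moves chromosomes to the spindle equator, at chr4:104026963-104119567 on hg19, went in opposite directions. Counts were 5812, 6067 and 6046 with DMSO and 1937, 2437 and 2414 with selinexor. They were 2512, 3218 and 3378 with control siRNA and 3791, 3814 and 3741 with XPO1 siRNA. Every selinexor library was below every DMSO library, and every XPO1 siRNA library was above every control siRNA library. The rise with knockdown rests partly on control siRNA replicate 1, which at 2512 was well below the others of its group. Starting means were unequal, at 5975 with DMSO and 3036 with control siRNA, in tables normalized separately. The selinexor effect was -1.41 (limma adjusted p = 1.05e-07), the knockdown effect 0.33 (adjusted p = 0.0266) and the difference -1.74 ± 0.15 (SE; adjusted p = 2.9e-06). MYCN, the amplified oncogene of this line, had a difference of -0.21 ± 0.10 (SE) with a 95% interval of -0.43 to 0.01, and it did not pass (limma adjusted p = 0.138). Without selinexor replicate 1 its difference was -0.30 and passed (adjusted p = 0.000379).

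Across the 17864 genes tested, 5520 had a difference past the threshold (30.9%, limma, Benjamini-Hochberg adjusted p under 0.05). Of these, 2026 were positive (11.3% of genes tested) and 3494 negative (19.6%). Those shares are the background for the list counts below. Differences of at least 1 on the log2 scale, which is 2-fold, were seen in 764 of the positive and 521 of the negative calls. The selinexor effect passed in 59.4% of genes (27.0% up, 32.3% down) and the knockdown effect in 36.8% (18.6% up, 18.2% down). The fit pooled each gene's variance over the 4 groups, so the spread of the selinexor libraries also entered the knockdown calls. That spread was unequal: estimated library weights averaged 0.243 for selinexor and 1.41 to 1.79 for the other groups. Which effects are called, and the classes built on them, depend on this pooling. Without selinexor replicate 1 the calls were 2864 positive and 4757 negative.

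The calls fell into classes by the effects behind them. Of the 5520 genes, 2765 had a selinexor effect and no called knockdown effect, and 1629 had both effects in the same direction with the selinexor effect the larger (9.12% of genes tested). Another 603 had a knockdown effect only, 91 had both effects in the same direction with the knockdown larger (0.509%), and 332 had both effects called in opposite directions (1.86%). The other 100 had neither effect called. A further 2931 genes (16.4%) had both effects called in the same direction and a difference that did not pass. The selinexor effect had an SD of 0.818 across genes and the knockdown effect 0.514. Pearson's r between the effects was 0.638 and Spearman's rho 0.600 over 17864 genes, which are not independent replicates, and the major axis through the points had a slope of 2.01. That axis is used below as a rescaling: each gene's selinexor effect is set against 2.01 times its knockdown effect, which leaves 1093 positive and 2020 negative calls. Out of 17864 genes, those are the background for the rescaled list counts below. Multiplying the knockdown effect also multiplies its error, so every gene has a larger standard error in the rescaled comparison. A call lost there can therefore come from lower precision as well as from the scale.

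**Figure D1:**
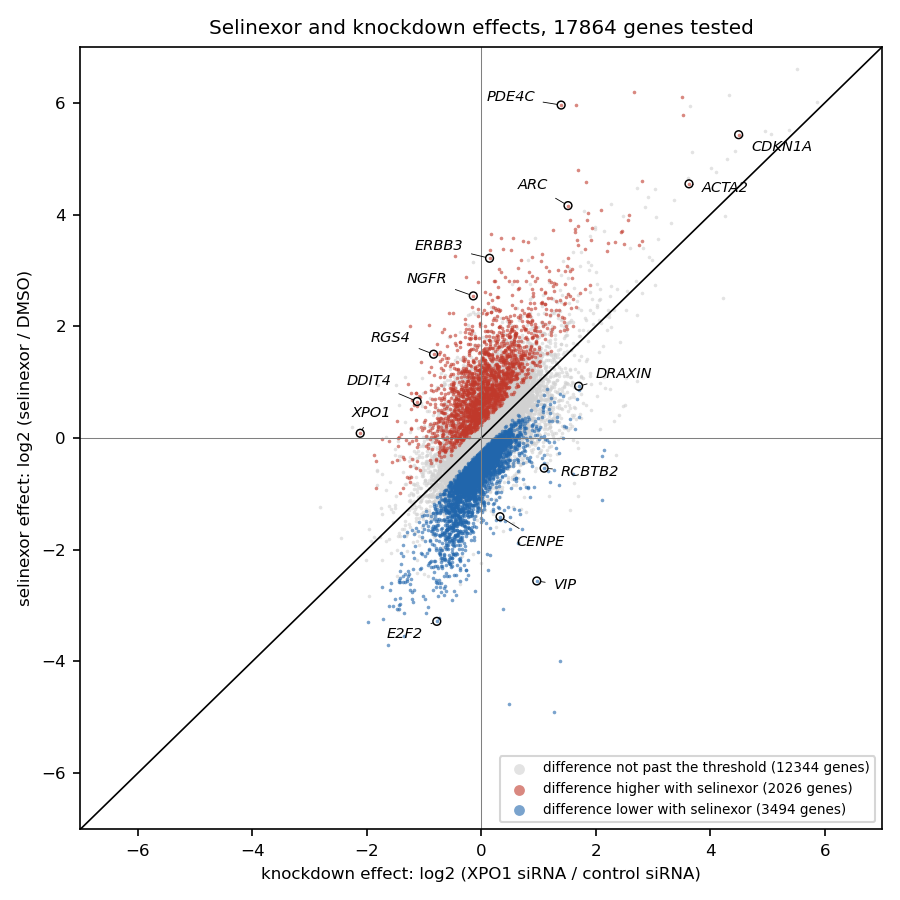
Each point is 1 of the 17864 genes tested, with the knockdown effect on the x axis and the selinexor effect on the y axis, both in log2 units; the diagonal marks equal effects. Red points (2026) are genes with a positive difference past the threshold and blue points (3494) are negative ones, and the cloud is steeper than the diagonal.

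The genes that copy DNA had the most negative differences of the 29 gene lists. All 48 tested replication and G1/S genes had a negative difference past the threshold (19.6% of all genes did), with a median of -1.46 against -0.07 over all genes. All 48 fell with selinexor (median effect -2.03), and 43 also fell with knockdown (median -0.52). In the rescaled comparison 38 of the 48 were negative. Without selinexor replicate 1 the count was again 48 of 48, with a median of -1.45.

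E2F2, a transcription factor of the E2F family that drives entry into S phase, had the most negative difference of the list. Its counts were 1172, 1204 and 1182 with DMSO and 125, 119 and 119 with selinexor. With control siRNA they were 1712, 1514 and 1624, and with XPO1 siRNA 930.4, 975 and 923. The difference was -2.51 ± 0.09 (SE; limma adjusted p = 6.92e-09). The changes of the selinexor libraries did not overlap those of the XPO1 siRNA libraries. That held in 55.5% of all genes and in 5519 of the 5520 with a called difference, so it adds nothing to the call.

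RRM2 encodes the small subunit of ribonucleotide reductase, which makes deoxynucleotides. It had counts of 10941, 11570.4 and 11238 with DMSO and 1325, 1603 and 1636 with selinexor. The siRNA libraries had 11198, 10731 and 11152 and 7445, 8020.2 and 7714. RRM2 was far lower in the selinexor libraries and lower by a smaller step in the knockdown libraries, with a difference of -2.38 ± 0.10 (SE; limma adjusted p = 1.91e-08).

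CDC6, which loads the replicative helicase at origins, had counts of 3624, 3834 and 3795 with DMSO, 542, 602 and 549 with selinexor, 3747, 3979.6 and 3890.1 with control siRNA and 2861, 2765 and 2707 with XPO1 siRNA. Its difference was -2.25 ± 0.08 (SE; limma adjusted p = 6.92e-09). ORC1, of the origin recognition complex, had a difference of -1.97, and CDC45, a part of the active helicase, one of -2.04. CLSPN, the checkpoint mediator claspin, and E2F8, a repressive E2F factor, had -2.19 and -2.17. These 4 genes fell with both treatments, and their selinexor effects ran from -3.14 (E2F8) to -2.45 (ORC1) while their knockdown effects ran from -0.97 (E2F8) to -0.37 (CLSPN).

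All 45 tested mitosis and G2/M genes also had a negative difference (19.6% of all genes did), with a median of -1.27. All fell with selinexor (median -1.74) and 42 fell with knockdown (median -0.52), and 32 were negative in the rescaled comparison. MYBL2, a factor that turns on late cell cycle genes with the MuvB core, had counts of 6582, 6947 and 6916 with DMSO and 1218, 967 and 919 with selinexor. With control and XPO1 siRNA they were 7652, 6978 and 7852, and 4308, 3979.8 and 4204. Neither treated group overlapped its control, and the difference was -1.88 ± 0.13 (SE; limma adjusted p = 4.15e-07). CDCA5, the cohesin protector sororin, had -1.79, the spindle checkpoint kinase BUB1B -1.48, the chromosomal passenger kinase AURKB -1.45 and cyclin B2, CCNB2, -1.03.

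Promoter sequences are shown because replication genes and mitosis genes moved together in the difference but carried different short motifs. Motifs of 2 kinds were searched on both strands from 250 bases before to 50 bases after the start, in RefSeq promoters of GRCh38.p14, for the 10389 tested genes with an entry: E2F sites written TTTCCCGC or TTTGGCGC, and the cell cycle homology region, CHR, written TTTGAA. The E2F letters were in 21 of 42 replication promoters, 1 of 37 mitosis promoters and 3.57% of all promoters. The CHR letters were in 67.6% of the mitosis promoters, 43.3% of 30 centromere and kinetochore promoters, 2.38% of the replication promoters and 9.61% of all. Over all genes, those with a negative difference had the CHR letters in 12.8% and the E2F letters in 6.11%, and those with a positive difference in 6.66% and 2.22%. The p53 targets described below, whose called differences were all positive, went the other way for E2F, with its letters in 4 of 26 promoters (15.4%), and had the CHR letters in 1. Each line below is the 160 bases before the start, 5′ to 3′ on the gene's strand, with the motif in capitals. E2F2, of the replication list, lies at chr1:23531234-23531393, minus strand, and holds E2F letters. CDCA5, at chr11:65084041-65084200, minus strand, is the exception of the mitosis list, the 1 of 37 promoters that holds E2F letters. BUB1B lies at chr15:40160909-40161068, plus strand, and CCNB2 at chr15:59104986-59105145, plus strand, and both hold the CHR letters. CENPE, at chr4:103198344-103198503, minus strand, holds neither motif in the searched window.
E2F2: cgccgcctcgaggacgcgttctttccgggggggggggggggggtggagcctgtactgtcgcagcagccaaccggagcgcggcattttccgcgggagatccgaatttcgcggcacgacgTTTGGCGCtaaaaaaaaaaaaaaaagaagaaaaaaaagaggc
CDCA5: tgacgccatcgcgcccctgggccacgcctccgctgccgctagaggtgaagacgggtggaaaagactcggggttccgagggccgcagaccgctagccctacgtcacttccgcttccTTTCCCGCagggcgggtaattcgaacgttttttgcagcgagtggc
BUB1B: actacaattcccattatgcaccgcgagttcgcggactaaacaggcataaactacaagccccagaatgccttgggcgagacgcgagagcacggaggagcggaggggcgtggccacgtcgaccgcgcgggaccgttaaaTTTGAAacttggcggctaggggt
CCNB2: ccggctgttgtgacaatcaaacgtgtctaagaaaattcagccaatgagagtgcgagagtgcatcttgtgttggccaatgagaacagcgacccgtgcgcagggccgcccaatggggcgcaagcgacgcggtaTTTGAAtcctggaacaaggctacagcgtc
CENPE: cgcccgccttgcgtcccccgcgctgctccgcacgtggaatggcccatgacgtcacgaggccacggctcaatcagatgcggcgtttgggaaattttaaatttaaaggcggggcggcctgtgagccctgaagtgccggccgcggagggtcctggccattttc
A match describes letters only, and these data hold no binding of a factor there.

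The centromere and kinetochore list repeated this pattern with more exceptions on the knockdown side. Of 38 tested genes 37 had a negative difference (median -1.28), where 19.6% of all genes did, and without selinexor replicate 1 the count was 38. With selinexor 37 fell, whereas with knockdown 25 fell and 2 rose, CENPE (0.33) and CENPT (0.43). NSL1, of the MIS12 complex, was the gene that did not pass, with a difference of -0.24 and a 95% interval of -0.45 to -0.02. SKA3, of the complex that couples kinetochores to microtubules, had counts of 1467, 1559 and 1549.9 with DMSO and 296, 329.8 and 292 with selinexor, and of 1323, 1230.3 and 1298 with control siRNA and 938, 851 and 893 with XPO1 siRNA. Its groups did not overlap in either arm, and the difference was -1.79 ± 0.10 (SE; limma adjusted p = 9.49e-08). ZWINT, which holds the checkpoint complex at kinetochores, had -1.64, and SPC24, of the NDC80 complex, -1.47. CENPO, of the inner kinetochore, had a selinexor effect of -1.59 and a knockdown effect of -0.09 that did not pass (limma adjusted p = 0.304).

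Repair genes used during replication followed. Of 35 homologous recombination and Fanconi genes 30 had a negative difference (median -1.01), where 19.6% of all genes did. With selinexor 32 fell and with knockdown 20 fell. The nuclease EXO1 had a selinexor effect of -2.82, a knockdown effect of -0.75 and a difference of -2.08 ± 0.10 (SE; limma adjusted p = 2.44e-08). FANCD2, the Fanconi protein that is monoubiquitinated at stalled forks, had a difference of -1.47.

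Replication-dependent histones fell under both treatments, and here the knockdown effect was large. Of 29 tested genes, all fell with selinexor (median -2.55) and 28 fell with knockdown (median -1.40). A negative difference was called in 24 (median -1.11), against 19.6% of all genes. In HIST1H3B, a histone H3 gene, counts were 19408, 20369 and 19278 with DMSO and 2646, 2584 and 2339 with selinexor. They were 36347, 34706 and 34611 with control siRNA and 13154, 12899 and 13545 with XPO1 siRNA. No groups overlapped within an arm, and the difference was -1.55 ± 0.08 (SE; limma adjusted p = 7.54e-08). In the rescaled comparison the list did not keep its sign: 7 genes were positive and 2 negative, with a median of 0.26. These genes are near-identical copies, so reads could be split among them, and values of single histone genes are uncertain.

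p53 target genes rose in both arms, and 17 of the 31 tested rose further with selinexor. All 31 tested targets rose with selinexor (median 2.19) and all 31 rose with knockdown (median 1.31), and 17 had a positive difference (11.3% of all genes did), none a negative one. The median difference was 0.70. Without selinexor replicate 1 the count was 23 of 31. BBC3, which encodes the apoptosis activator PUMA, had counts of 49.0, 35.3 and 46.0 with DMSO and 1207, 1037 and 985 with selinexor. With control siRNA they were 71.6, 103 and 74.1, and with XPO1 siRNA 575, 565 and 601. BBC3 was thus induced in both arms, with a difference of 1.80 ± 0.21 (SE; limma adjusted p = 4.49e-05).

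Other targets with a positive difference have roles in arrest and in stress signalling. CDKN1A, the cyclin-dependent kinase inhibitor p21, had counts of 611, 672 and 617 with DMSO and 26245, 29602 and 26274 with selinexor. It had 721, 671 and 673 with control siRNA and 16062, 15137 and 15456 with XPO1 siRNA. Its effects were 5.43 and 4.50, and the difference was 0.93 ± 0.09 (SE; limma adjusted p = 9.26e-06). GADD45A, a stress-induced arrest gene, had a difference of 1.39, SESN2, which restrains mTORC1, 1.40, BTG2, an antiproliferative gene, 1.45, and CYFIP2, a part of the WAVE complex, 1.37. MDM2, the ubiquitin ligase of p53, had 0.73.

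The 14 targets without a called difference included BAX, a pore-forming apoptosis effector (0.24, 95% interval 0.03 to 0.45), and EDA2R, a receptor of the TNF receptor family (0.10, interval -0.34 to 0.54). The exonuclease gene AEN had -0.07 with an interval of -0.27 to 0.13. These intervals exclude the median difference of the list. DDB2, a damage recognition gene, was measured less precisely, with 0.33 and an interval of -0.41 to 1.07. In the rescaled comparison 1 of the 31 targets was positive and 16 were negative, with a median of -0.82, so the direction of this list depends on that rescaling.

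Among 23 tested BCL2 family and caspase genes, 5 had a positive and 8 a negative difference (median -0.11), where 11.3% and 19.6% of all genes did. The positive count was 3 without DMSO replicate 1 or 3, control siRNA replicate 1 or 3, or XPO1 siRNA replicate 2 or 3, and the negative count 5 without DMSO replicate 2 or control siRNA replicate 3. The survival genes MCL1 and BCL2 fell with selinexor (-0.57 and -0.51) and had knockdown effects of 0.04 and 0.10 that did not pass. Their differences were -0.61 ± 0.09 and -0.61 ± 0.08 (SE; limma adjusted p = 0.00026 and 0.00012). The positive calls were BBC3, APAF1, which forms the apoptosome (0.41), its caspase CASP9 (0.53) and the death-promoting BAD (0.55) and BMF (0.36).

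Immediate early genes respond to growth factor and stress signalling within minutes. Of 30 tested genes 17 had a positive difference (11.3% of all genes tested did) and 1, KLF6 (-0.31), a negative one (19.6% did), with a median of 0.49. KLF6 did not pass without DMSO replicate 2, control siRNA replicate 1 or 3, or XPO1 siRNA replicate 1, 2 or 3. ARC, a neuronal activity gene, had counts of 71.3, 67.9 and 67.7 with DMSO and 1571, 1121 and 1109.7 with selinexor. The control siRNA libraries had 232, 244 and 213, and the XPO1 siRNA libraries 668, 617 and 688. ARC rose in both arms, with a difference of 2.64 ± 0.17 (SE; limma adjusted p = 2.5e-07).

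FOS, an AP-1 subunit, had counts of 18.9, 25.6 and 19.9 with DMSO and 188, 244 and 180 with selinexor, and of 33.7, 37.2 and 37.9 with control siRNA and 59.3, 61.1 and 57.1 with XPO1 siRNA. Its difference was 2.50 ± 0.23 (SE; limma adjusted p = 6.05e-06), and that of EGR1, a zinc finger factor, 2.05 ± 0.32 (SE; adjusted p = 0.000416). ATF3, a stress-induced bZIP factor, went in opposite directions. It rose with selinexor, from 206, 212 and 215 to 317, 332 and 312, and fell with knockdown, from 412, 414 and 410.2 to 266, 254 and 254. Its difference was 1.27 ± 0.10 (SE; limma adjusted p = 1.61e-06). In the rescaled comparison 6 of the 30 genes were positive and 4 negative. Of all 17864 genes 1093 and 2020 were, so the rescaled negative share was near the background.

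Of 19 targets of FOXO factors 11 had a positive difference and 1 a negative one (median 0.73), against 11.3% and 19.6% of all genes. The list's median effect was 0.98 with selinexor and 0.28 with knockdown, and in the rescaled comparison 8 genes were positive and 3 negative. CDKN1C, the kinase inhibitor p57, had a selinexor effect of 1.44 and a knockdown effect of -0.10 that did not pass (difference 1.54 ± 0.17, SE; limma adjusted p = 1.98e-05). YPEL3, linked to growth arrest, rose in both arms (1.88 and 0.87; difference 1.01). KLF9, a zinc finger factor, rose with selinexor (0.61) and fell with knockdown (-0.65). The negative member was CDKN1B, the kinase inhibitor p27 (-0.72), which fell with selinexor (-0.33) and rose with knockdown (0.39).

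**Figure D2:**
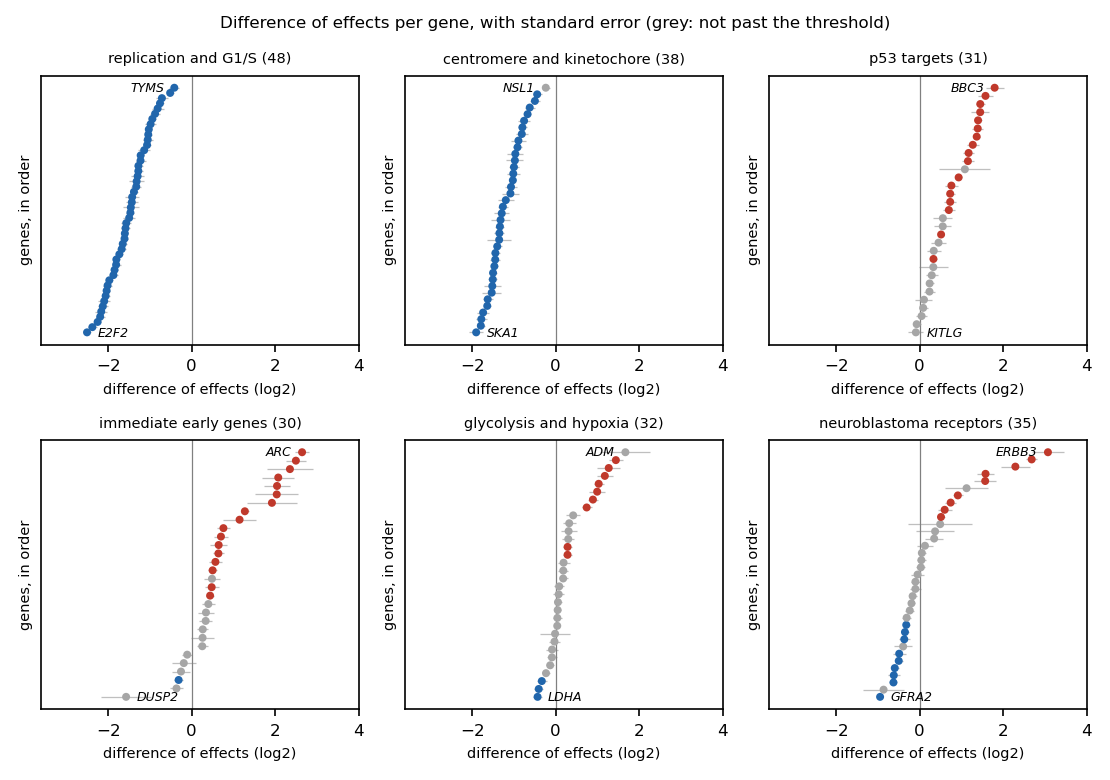
Each panel plots the difference of effects in log2 units on the x axis for every tested gene of 1 list, in rank order on the y axis, with its standard error as a bar; the lowest and highest genes are named. Red and blue points passed the threshold and grey ones did not: all 48 replication and 37 of 38 centromere points are blue, while the p53 and immediate early panels hold 17 red points each.

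The 332 genes with opposite effects were 141 that rose with selinexor and fell with knockdown (0.789% of genes tested) and 191 that fell with selinexor and rose with knockdown (1.07%). This count moved with the libraries: it was 740 without selinexor replicate 1, 191 and 212 without control siRNA replicates 1 and 2, and 206, 187 and 201 without XPO1 siRNA replicates 1, 2 and 3.

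VIP, a neuropeptide, had the most negative difference of the named genes. Its counts were 854, 807 and 779.9 with DMSO and 103, 172 and 145 with selinexor. They were 44.2, 51.0 and 39.5 with control siRNA and 92.9, 80.1 and 92.9 with XPO1 siRNA. VIP fell in all 3 selinexor libraries and rose in all 3 XPO1 siRNA libraries, with a difference of -3.53 ± 0.23 (SE; limma adjusted p = 3.02e-07). The DMSO cells started at a mean of 814 and the control siRNA cells at 44.9.

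RGS4, which shortens G protein signalling, moved the other way. It rose from 79.9, 121 and 126 with DMSO to 270, 279 and 374 with selinexor. It fell from 2539, 5771 and 3347 with control siRNA to 2566, 1741 and 1944 with XPO1 siRNA, where the lowest control library and the highest knockdown library overlapped. The difference was 2.33 ± 0.37 (SE; limma adjusted p = 0.000448). DDIT4, an inhibitor of mTORC1 that responds to stress and low oxygen, rose from 1169, 1271 and 1312 to 2033, 2053 and 1821 with selinexor. With knockdown it fell from 5081, 7347 and 5716 to 2995, 2624 and 2647, with no overlap in either arm. Its difference was 1.77 ± 0.16 (SE; limma adjusted p = 3.94e-06).

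Other genes that rose with selinexor and fell with knockdown were ARID5B (1.18 and -0.91), a chromatin and transcription cofactor, and SPRY1 (1.32 and -0.53), a feedback inhibitor of receptor tyrosine kinase signalling. FMNL1, a formin that builds actin filaments, had effects of 1.58 and -0.42. POU3F1, a POU domain factor, PPIC, a cyclophilin, and LRRC10B had differences of 1.94, 1.55 and 1.84. TFEB, the master factor of lysosome genes, had effects of 0.86 and -0.47.

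Genes that fell with selinexor and rose with knockdown included RCBTB2, with counts of 345, 354 and 323 with DMSO, 178, 296 and 243 with selinexor, 167, 184 and 167 with control siRNA and 366, 397 and 350.2 with XPO1 siRNA. ID1, an inhibitor of bHLH factors and a BMP target, fell from a mean of 1777 ± 114 (SD, n = 3) to 1313 ± 17.4 with selinexor. With knockdown it rose from 236 ± 19.8 to 429.9 ± 31.7. CKM, muscle creatine kinase, PROM1, the membrane glycoprotein CD133, ISLR2, a neuronal membrane protein, and the pseudogene DDX12P had differences of -1.41, -1.39, -1.23 and -1.24.

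**Figure D3:**
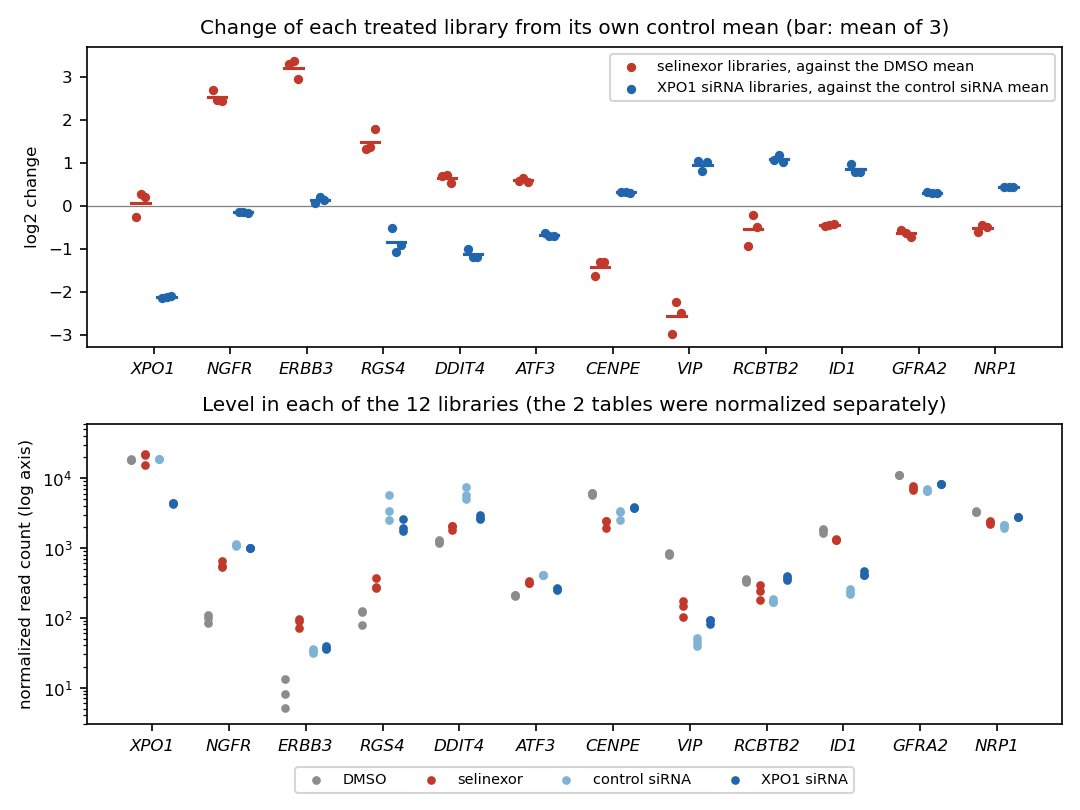
The upper panel plots the log2 change of each selinexor library (red) from the DMSO mean and of each XPO1 siRNA library (blue) from the control siRNA mean for 12 genes, with the mean of 3 as a bar. The lower panel plots the normalized read count of all 12 libraries on a log axis and shows that the DMSO and control siRNA levels of NGFR, RGS4, DDIT4, VIP and ID1 were far apart, in tables normalized separately.

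Of 35 tested receptors of neuroblastoma cells, 9 had a positive and 9 a negative difference (median -0.05), where 11.3% and 19.6% of all genes did, so the negative share was near the background. ERBB3, a neuregulin receptor that is also a glial and FOXO-responsive gene, had counts of 5.16, 13.2 and 8.12 with DMSO and 91.2, 96.2 and 70.9 with selinexor. It had 31.6, 36.1 and 33.0 with control siRNA and 35.4, 39.3 and 36.9 with XPO1 siRNA. ERBB3 rose from a few counts in the selinexor arm, and the siRNA groups overlapped. The difference was 3.07 ± 0.38 (SE; limma adjusted p = 5.72e-05). EPHA4, an ephrin receptor, had effects of 1.84 and -0.45 (difference 2.29), its relative EPHA2 rose in both arms (2.03 and 1.12), and the neuregulin receptor ERBB4 had a difference of 1.58.

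NTRK3, the receptor of neurotrophin-3, rose with selinexor (0.24) and fell with knockdown (-0.51). Its difference was 0.74 ± 0.13 (SE; limma adjusted p = 0.000917). GFRA2, the neurturin co-receptor, had counts of 11014, 11251 and 11119.7 with DMSO and 7627, 7189 and 6719 with selinexor. With control siRNA they were 6623, 6499.5 and 6887, and with XPO1 siRNA 8362, 8284 and 8208. Its groups did not overlap in either arm and the difference was -0.95 ± 0.08 (SE; limma adjusted p = 2.12e-06).

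Of 16 genes that make and store catecholamines 6 had a positive and 2 a negative difference (median 0.32), where 11.3% and 19.6% of all genes did. GCH1, which makes the cofactor of tyrosine hydroxylase, had effects of 1.90 and 0.82 (difference 1.08 ± 0.12, SE; limma adjusted p = 3.42e-05). The vesicle genes SYT4 and SCG2 had differences of 1.15 and 0.53, and DBH, which makes noradrenaline, 0.81. SLC6A2, the noradrenaline transporter, was opposite: 360.2, 362 and 330.4 with DMSO, 233, 279 and 322 with selinexor, 158, 153 and 149.9 with control siRNA and 275, 274 and 283 with XPO1 siRNA. The adrenergic core factors mostly had no called difference, with 5 of 26 positive and 3 negative, a negative share below the 19.6% of all genes. The negative count was 8 without selinexor replicate 1, 6 without selinexor replicate 2 and 1 without any single DMSO or control siRNA library or XPO1 siRNA replicate 1. The positive count was 3 without DMSO replicate 3, control siRNA replicate 1 or 2, or XPO1 siRNA replicate 2 or 3. In the rescaled comparison none was positive and 7 were negative. Among these factors SOX4 rose in both arms (1.35 and 0.92), and INSM2 and ZNF536 had differences of 1.11 and 0.42. TBX2, a T-box repressor, passed for knockdown only (0.96, against 0.21 with selinexor). Its starting mean was 8217 with DMSO and 3356 with control siRNA, in tables normalized separately.

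Of 37 neuronal differentiation genes 12 had a positive and 6 a negative difference (median 0.09), and without selinexor replicate 1 the negative count was 10. Of all genes tested 11.3% were positive and 19.6% negative, so neither this list nor axon guidance had a negative share above the background. The neurofilament gene NEFL (0.75), the endocytic adaptor SNAP91 (0.93), the vesicle protein SYN1 (1.26) and the endosomal NSG1 (0.62) were positive. DPYSL3 (-0.50), a growth cone protein, GAP43 (-0.61) and the intermediate filament PRPH (-0.84) were negative. In axon guidance 11 of 34 were positive and 3 negative (8 without selinexor replicate 1). SLIT1, a repellent ligand, had 1.95 and the ephrin EFNB1 1.10, while the semaphorin receptor NRP1 was opposite (-0.51 and 0.45). The netrin receptor UNC5B passed for knockdown only (0.79, against -0.00 with selinexor). Its starting mean was 7548 with DMSO and 2745 with control siRNA, in tables normalized separately.

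The knockdown effect was the larger in 91 genes with both effects in the same direction. MDGA1, a synaptic adhesion regulator, had counts of 132, 119 and 112 with DMSO and 219.6, 193 and 179 with selinexor. With control siRNA they were 118, 106 and 123, and with XPO1 siRNA 396, 387 and 335. MDGA1 rose in both arms without overlap, and the difference was -0.97 ± 0.16 (SE; limma adjusted p = 0.000606). DRAXIN, a repulsive guidance protein, SLC16A9, a carnitine and monocarboxylate carrier, VSTM2A and FAM215B also rose more with knockdown, with differences of -0.77, -0.84, -0.84 and -0.76. Starting levels were unequal for DRAXIN, with means of 1796 with DMSO and 553 with control siRNA, and for FAM215B (265 and 87.9). They were closer for MDGA1 (121 and 116), SLC16A9 (995 and 818) and VSTM2A (1836 and 1278), in tables normalized separately. FGFR4, a fibroblast growth factor receptor, ME1, malic enzyme, EFNB2, an ephrin, SMTNL2 and PAQR5, a membrane progestin receptor, fell more with knockdown, with differences of 0.60, 0.60, 0.70, 0.74 and 0.97. Knockdown effects of these last 5 genes ran from -1.34 (PAQR5) to -1.11 (EFNB2).

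Part of the glycolysis and hypoxia genes stood lower with knockdown than with selinexor. Of 32 tested genes 9 had a positive difference and 3 a negative one (11.3% and 19.6% of all genes did), and 5 of the 9 passed for knockdown only. ALDOC, the brain aldolase, had counts of 396, 391 and 437 with DMSO and 383, 451 and 385 with selinexor. It fell from 1965, 2815 and 2318 with control siRNA to 928, 759 and 891 with XPO1 siRNA, a difference of 1.44 ± 0.17 (SE; limma adjusted p = 4.87e-05). The control siRNA mean of ALDOC was 2366 and the DMSO mean 408.

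P4HA2, a collagen prolyl hydroxylase, EGLN3, an oxygen sensor, BNIP3, a mitophagy receptor, and PFKFB4, a glycolysis regulator, made up the other knockdown-only genes, with differences of 0.89, 1.27, 0.99 and 1.18. PFKL, phosphofructokinase of liver type, rose with selinexor only (0.73), and NDRG1 rose in both arms (1.73 and 0.70). LDHA, lactate dehydrogenase, was one of the 3 negative genes (-0.43), since it fell in both arms (-1.38 and -0.94). In the rescaled comparison 15 of the 32 were positive and none negative. Without selinexor replicate 1 the counts, not rescaled, were 15 positive and 5 negative.

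Of 37 transport receptor and Ran cycle genes, the machinery around XPO1, 25 had a negative difference (19.6% of all genes did) and 1, XPO1, a positive one (2 were positive without selinexor replicate 1). The median was -0.40. The negative count was 28 without selinexor replicate 1. It was 17 without DMSO replicate 2 or 3, control siRNA replicate 1 or 2, or XPO1 siRNA replicate 1 or 2. The Ran exchange factor RCC1 had effects of -1.59 and -0.49, the importin KPNB1 -1.02 and -0.35, and RANBP1, which helps to release export complexes, -1.23 and -0.57. Their differences were -1.10 ± 0.10, -0.67 ± 0.08 and -0.66 ± 0.08 (SE; limma adjusted p = 4.55e-06, 3.22e-05 and 6.73e-05). PHAX, the adaptor through which XPO1 exports small nuclear RNAs, and RANBP2, a filament nucleoporin that binds Ran, were opposite (-0.46 and 0.29, and -0.28 and 0.33).

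Nucleoporins were negative in 24 of 30 (median -0.55), against 19.6% of all genes, and positive in none, or in 2 without selinexor replicate 2. NUP85, NUP155, NUP50 and NUP62, of the outer ring, inner ring, basket and central channel, had differences of -0.94, -0.90, -0.90 and -0.88. Rescaled, 6 nucleoporins were negative and none positive (median -0.30), and 7 of the transport genes were negative and 2 positive (median -0.25). Ribosome biogenesis genes were negative in 30 of 47 (median -0.44), or in 24 without DMSO replicate 2 and 41 without selinexor replicate 1. Of the 47, 14 fell with knockdown against 42 with selinexor. Rescaled, 11 of the 47 were negative and 1 positive. UTP20, of the small subunit processome, the snoRNP protein NOP56, its chaperone NOLC1 and the pseudouridine synthase DKC1 had differences of -0.96, -0.79, -0.70 and -0.69.

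Chaperones were negative in 18 of 26 (median -0.52), against 19.6% of all genes. They were positive in 1, HSPA4L (0.86), or in 2 without selinexor replicate 2 or 3. Rescaled, 11 were negative and 1 positive. HSPA8, the constitutive Hsp70, had counts of 77333, 82003 and 79088 with DMSO and 31709, 36749.8 and 33188 with selinexor. With control and XPO1 siRNA they were 76941, 77022 and 76876, and 67347, 65416 and 65950.3. It fell in both arms, with a difference of -1.02 ± 0.09 (SE; limma adjusted p = 3.43e-06). HSPH1, a nucleotide exchange factor of Hsp70, had effects of -1.10 and -0.10, of which the first passed. The co-chaperone STIP1 had a difference of -0.69, and the co-chaperone DNAJA1 was opposite (-0.61 and 0.20).

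Proteasome subunits were negative in 16 of 31 (median -0.37), among them PSMD12 (-0.82), PSMD1 (-0.68), PSMD11 (-0.65) and PSMD7 (-0.58) of the regulatory particle. The negative count was 26 without selinexor replicate 2 and 12 without DMSO replicate 2 or 3 or XPO1 siRNA replicate 2. Rescaled, 1 of the 31 subunits was negative (median -0.02), so these calls depend on the scale of the knockdown effect. ATF4 targets and unfolded protein response genes were negative in 18 of 35 and positive in 4 (median -0.27). Of all genes 19.6% were negative and 11.3% positive, so the positive share was near the background. The amino acid carriers SLC7A11, for cystine (-2.09), SLC7A5, for large neutral amino acids (-1.05), and SLC1A5, for glutamine (-0.92), and the serine enzymes PHGDH (-1.11) and SHMT2 (-0.90) were negative. The positive genes were DDIT4, TRIB3 (0.72), DDIT3 (0.64) and VLDLR (0.41). Rescaled, this list had 8 positive and 4 negative genes, against 1093 and 2020 of all 17864, so the negative share was near the background.

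Cholesterol synthesis genes fell in both arms (20 of 25 in each). Of the 25, 11 had a negative difference and 2 a positive one (median -0.21), against 19.6% and 11.3% of all genes. SQLE, squalene epoxidase, had counts of 4682, 4714 and 4739 with DMSO and 1727, 1962 and 1884 with selinexor. It had 7432, 7540.1 and 7137 with control siRNA and 4977, 4861 and 5050.5 with XPO1 siRNA, and its difference was -0.77 ± 0.08 (SE; limma adjusted p = 1.49e-05). ACAT2 had a difference of -0.74. The positive genes were the reductase TM7SF2, which rose with selinexor (1.74; difference 1.57), and HSD17B7, which fell with knockdown (-0.66; difference 0.68), and without selinexor replicate 1 there were 4. Rescaled, 7 of the 25 genes were positive and none negative.

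**Figure D4:**
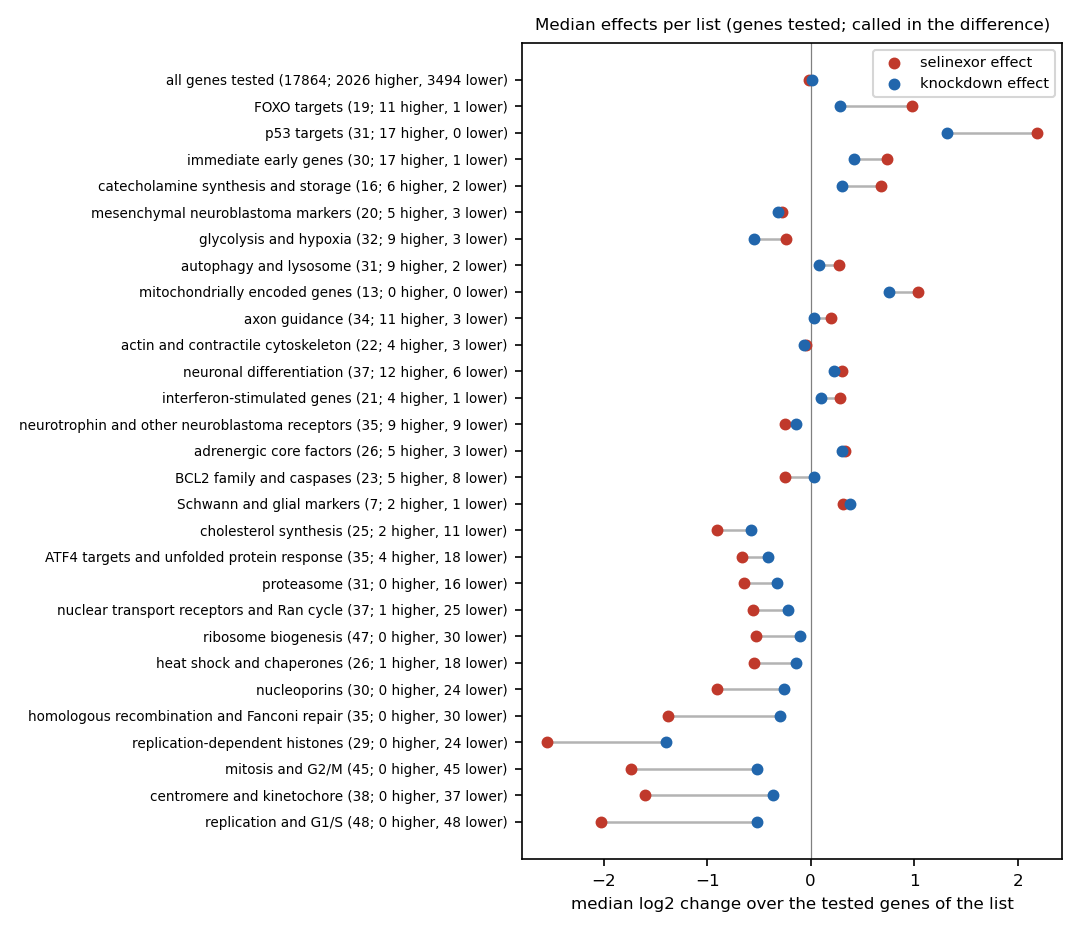
For each gene list with at least 5 tested genes, and for all genes tested, the median selinexor effect (red) and the median knockdown effect (blue) are plotted on the x axis in log2 units, with the counts of tested, positive and negative genes beside the name. The replication list has the widest gap between its points (-2.03 and -0.52), and in every list from cholesterol synthesis downward the selinexor median lies below the knockdown median.

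Most of the remaining lists had calls in both directions, where 11.3% of all genes were positive and 19.6% negative, and their small counts moved with single libraries. Autophagy and lysosome genes had 9 of 31 positive and 2 negative, with WIPI1 (1.21), an autophagosome protein, DRAM1 (1.41), a p53-induced lysosomal protein, and the protease CTSL (0.67) positive. The negative count was 4 without selinexor replicate 1, 1 without any single library other than DMSO replicate 1 or selinexor replicate 1 or 2, and 6 with the GC trend removed. Rescaled, 3 were positive and 1 negative. Interferon-stimulated genes had 4 of 21 positive and 1 negative, including the ubiquitin-like ISG15 (2.18 ± 0.32, SE; limma adjusted p = 0.00027), the exonuclease ISG20 (1.54) and IFI6 (0.71), all positive. The negative count was 0 without DMSO replicate 1 or 2, control siRNA replicate 1 or 3, or XPO1 siRNA replicate 2, and 2 without selinexor replicate 2 or 3 or XPO1 siRNA replicate 3. It was 3 without control siRNA replicate 2, and 4 without selinexor replicate 1 (with 6 positive) or with the GC trend removed. Mesenchymal neuroblastoma markers had 5 of 20 positive and 3 negative (2 positive without control siRNA replicate 1, 3 without DMSO replicate 2 or XPO1 siRNA replicate 3), with MMP2 (1.21), a matrix protease, and NOTCH1 (0.91) positive and SNAI2 (-0.94) and THY1 (-0.53) negative. Actin and contractile genes had 4 of 22 positive and 3 negative. The positive count was 2 without DMSO replicate 1, control siRNA replicate 2 or 3, or XPO1 siRNA replicate 2 or 3, and the negative count 1 without any single library other than selinexor replicate 1 or control siRNA replicate 3. In that list ACTA2, smooth muscle actin, rose strongly in both arms (4.55 and 3.63; difference 0.92), while VCL, ZYX and TPM4 had differences of 0.27, 0.63 and -0.29. Schwann and glial markers had FOXD3 (1.53) and ERBB3 positive and CNP (-0.50) negative among 7, with 2 negative without selinexor replicate 3. Of the 2 tested leukocyte and endothelial markers, CDH5 had a difference of -0.13 and ENG 1.36, and neither passed (1 did without selinexor replicate 3).

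Of 13 mitochondrially encoded genes 8 rose with selinexor and 7 with knockdown, and none passed for the difference (median 0.15). Selinexor replicate 1 decided this: without it 9 were positive and 1 negative, with a median of 0.67. Without selinexor replicate 2, 1 was negative. MT-ND4, of respiratory complex I, had counts of 1249, 1136 and 1084 with DMSO and 1970.2, 4489.5 and 5154 with selinexor, where the first library was far below the others. It had 1795, 1869 and 1527 with control siRNA and 3097, 2929 and 2867 with XPO1 siRNA, and a difference of 0.85 with a 95% interval of 0.08 to 1.62.

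Several of the most positive differences were in genes that were nearly silent with DMSO. PDE4C, a cyclic AMP phosphodiesterase, had counts of 2.58, 0.88 and 0.90 with DMSO and 168, 138 and 131 with selinexor. It had 21.1, 32.9 and 26.6 with control siRNA and 90.3, 71.3 and 56.0 with XPO1 siRNA. The difference was 4.56 ± 0.41 (SE; limma adjusted p = 3.89e-06), on the log2(value + 1) scale, which understates changes of low genes. EPPK1, epiplakin, with 3.53, ATP8B4, a phospholipid flippase, with 4.31, CDH8, a cadherin, with 3.12 and ANKRD65 with 2.75 also rose in both arms. CPM, a carboxypeptidase, with 3.03, and FST, the activin antagonist follistatin, with 2.58, passed for selinexor only. The starting levels were unequal: PDE4C had a mean of 26.9 with control siRNA and 1.45 with DMSO. EPPK1, ATP8B4, CDH8, ANKRD65, CPM and FST also started higher with control siRNA than with DMSO, in tables normalized separately. The rule for named genes, given below, set a minimum group mean, so genes this low with DMSO entered through another group. The part of the unequal starting levels in these differences was not tested.

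Some extreme values were fragile. RPS10-NUDT3, a read-through that overlaps other genes, had selinexor counts of 321, 16.1 and 45.4, and its difference of 3.26 ± 1.16 (SE; limma adjusted p = 0.0487) was 2.08 without selinexor replicate 1 and did not pass without selinexor replicate 3 (adjusted p = 0.0558). The pseudogene SLC2A3P1 had a difference of -3.44 ± 0.91 (SE; adjusted p = 0.012), and its siRNA libraries ranged from 51.6 to 187. SERTAD4 was measured tightly: 639, 613 and 626 with DMSO, 73.2, 95.1 and 99.3 with selinexor, 784, 788 and 851 with control siRNA and 619, 575 and 589 with XPO1 siRNA. It fell in both arms, with a difference of -2.37 ± 0.14 (SE; limma adjusted p = 1.59e-07).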

How the data were processed

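Strand-specific libraries were made from total RNA of IMR5 cells, per the labels' protocols, and sample titles gave the groups and replicate numbers. The submitters' processing notes name genome build hg19 and the tools STAR 2.7.3a, Partek and DESeq2. Which annotation was counted, and how strand was handled, is not given in the sources used here. Each deposited value is a signal, a read count that the authors divided by a size factor per library, once for the 20029 genes of the drug libraries and once for the 19610 genes of the siRNA libraries. Another 3 columns of per-sample values in the siRNA table were not used. That table holds 25 symbols in date form, which were mapped back by coordinates, and the tables were joined on the symbol. Low values (0.3 to 60) fell on whole steps within 0.02 for 62.0% to 66.8% of genes per library, against 4% by chance. Whole reads were therefore not recoverable, depth is an estimate from those steps, and count models were not applied.

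Each effect was formed within its own table. The test was limma 3.58.1 (R 4.3.3), with lmFit on the 4 group means of the 12 libraries and eBayes with its trend option. It used log2(value + 1), genes with a mean of 10 or more, two-sided p-values, Benjamini-Hochberg adjustment over 17864 genes and a threshold of 0.05. Standard errors and 95% intervals are from that model. The test was also run on simulated data in which the changed genes were known. There the noise had the same spread for all genes of a group, and only selinexor libraries were changed. The simulation therefore cannot speak to spread that differs between genes or to an outlying library such as selinexor replicate 1. Drug and knockdown effects share no control. Same-numbered replicates did not deviate together (correlations of -0.084 to 0.113), so no block was used.

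The members, the 29 gene lists and the rule for named genes were chosen with earlier results of these data known. The rule took XPO1, NGFR, CENPE and MYCN and, among called genes with a group mean of 100 or more and libraries that do not overlap, the 10 largest differences per direction, the 8 largest per direction with opposite effects, the 5 largest per direction with the larger knockdown effect, and up to 4 called members per list with the smallest p (2 where none was called). NTRK3, CDKN1A, MDM2, BAX, EDA2R, CCNB2, SLC7A11 and the other named genes outside it were chosen after their values were seen. Some genes stand in more than 1 list, and some that the rule took are not reported here. Promoters came from RefSeq (GRCh38.p14) by symbol, and gene positions on hg19 from the deposited tables. Tables and figures were made in Python 3.11.15 (numpy 2.4.6, pandas 2.3.3, matplotlib 3.10.9). The alternatives changed the pseudocount, filter, scaling, trend, weights, block and rescaling or left out 1 library, and trends with GC content and length were removed in 2 alternatives added after seeing the data.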

Additional observations from a re-analysis of the deposited data

How the results depend on the processing

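Of 149 named genes, 91 kept their direction and their side of the threshold under all 25 alternatives, and 137 did so when the rescaling of the knockdown effect was set aside. With the knockdown effect multiplied by 2.01, 1093 genes were positive and 2020 negative, and the difference changed sign in 10 genes: ACAT2 (0.31), ACTA2 (-2.73), BBC3 (-1.03), BTG2 (-0.14), CTSL (-0.45), DRAM1 (-1.19), EPHA2 (-0.21), HIST1H3J (0.19), MT-ND5 (-0.25) and SOX4 (-0.49). That follows from the construction of the alternative, since these genes had large effects in both arms. CDH5, which did not pass, was 0.014 without selinexor replicate 3. All calls together numbered 4332 to 7621 when 1 library was left out, the highest without selinexor replicate 1. The count of opposite effects was 187 to 740 in the same settings and 512 with the GC trend removed. It was 457 with library weights per group and 458 with equal totals, and the cause was not tested. Removing the GC trend, chosen after seeing the data, also moved list counts that were small: negative calls to 7 in adrenergic factors, 9 in axon guidance, 5 in actin genes, 3 in immediate early genes and 1 in p53 targets, and positive calls to 2 in each of the BCL2 family, transport and mitochondrial lists. With the replicate block the calls were 1803 positive, 3269 negative and 245 opposite, but same-numbered libraries share only a number here. Other scalings moved the median difference from -0.07 to between -0.08 and -0.04. A mean filter of 50 left too low a value to test in 4 named genes, and of 10 in each table in 1. The number of libraries, 3 a group, limits the precision, and no count model was used.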
